A study of Mus musculus with 9 samples.

Results

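DNA replication and S phase genes form a set of 57 members here, out of 23992 gene symbols in the deposited tables. Members were the rows whose symbol is on a list of replication genes drawn up by name, with the transcript holding the most reads over the 9 libraries standing for each symbol. All 57 were in the tables and 56 were abundant enough to be tested. Ung, the uracil glycosylase that removes misincorporated uracil, had 22 to 120 reads per library and was not tested. Messenger RNA was sequenced from splenic regulatory T cells (Tregs) of BALB/c mice that carry a green fluorescent protein linked to Foxp3. All groups, the controls included, carried by transduction an altered (ortho) IL-2 receptor beta chain marked with human EGFR, which an engineered ortho IL-2 is made to engage. Before treatment every culture was expanded on beads against CD3 and CD28 for 48 h, with human IL-2 at 1000 IU/mL, then enriched on magnets through its EGFR mark and rested overnight in the absence of IL-2. The 3 groups, of 3 libraries each, then had 4 h without IL-2 (no IL-2), with wild-type IL-2 at 20000 IU/mL (WT IL-2), or with the engineered cytokine at 2000000 IU/mL (ortho IL-2). The ortho dose was 100 times the WT dose in IU/mL, so the 2 cytokines were not compared at matched doses. The culture is given from the treatment label, since the growth label describes a co-culture assay. The labels do not say that libraries came from separate cultures or animals, so p-values measure the spread between these libraries, which may be technical.

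A cell that is going to divide copies its genome once, in S phase. The origin recognition complex, Cdc6 and Cdt1 load the MCM helicase on origins, the kinase Cdc7 with Dbf4 and the factors Cdc45 and GINS switch the helicase on, and DNA polymerases follow it with the sliding clamp PCNA. Many of these genes are transcribed under E2F factors, which the retinoblastoma protein restrains, and IL-2 is the cytokine that drives activated T cells from G1 into S phase. RNA levels were read here at a single time, with no measure of DNA synthesis or of cell cycle phase. In such bulk samples, fewer cells in S phase and less RNA per cell cannot be told apart.

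The promoters of 47 members were found among RefSeq sequences (GRCm38.p6), as 54 windows from 250 bases before to 50 after the annotated start. Windows were searched on both strands for 4 E2F-type letter strings, TTTGGCGC, TTTCCCGC, TTTCGCGC and TTTGCCGC. At least 1 of them was found in 19 of the 54 windows (35.2%), in 2.26% of all 32851 windows of that length and in 4.22% of the 10055 windows of genes tested. By the calls described below, they were in 2 of 7 windows of members higher with both cytokines, in 4 of 9 windows of members lower with both, and in 10 of 33 windows of members called in neither comparison. The CCAAT box was in 55.6% of members' windows and 37.4% of all windows, the E-box CACGTG in 12.96% and 7.15%, the CHR element TTTGAA in 18.5% and 17.9%, and the STAT element TTCNNNGAA in 7.41% and 8.30%. These are matches of letters and not sites of binding. The 200 bases next to the start of 4 members are shown, chosen because their RNAs took different courses: Mcm2 rose with both cytokines, Mcm5 was called with neither, Mcm6 fell with both and Pola1 fell with ortho IL-2, though not in the unscaled RPKM described below, where it turned to a log2 fold change of 0.02. Capitals mark the E2F-type matches. Mcm6 (chr1:128359706-128359905, minus strand) held 3, of which 2 overlap, Mcm5 (chr8:75109309-75109508, plus strand) held 2 that overlap, Pola1 (chrX:93632156-93632355, minus strand) held 1, and Mcm2 (chr6:88898781-88898980, minus strand) held 0. Stretches of this length held 0 for E2f2, Msh6 and Tyms, also lower with both cytokines. They held 0 as well for Chaf1a, Chaf1b, Pold1, Pole2 and Rrm2, higher with both. The stretches end before the start, and the windows counted above did hold a match after the start for E2f2, Msh6, Pold1 and Pole2. The 4 shown therefore do not stand for the other members.
Mcm2: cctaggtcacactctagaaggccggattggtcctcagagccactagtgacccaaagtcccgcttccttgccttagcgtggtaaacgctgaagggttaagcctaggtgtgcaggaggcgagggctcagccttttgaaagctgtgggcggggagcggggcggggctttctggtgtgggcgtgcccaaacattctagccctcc
Mcm5: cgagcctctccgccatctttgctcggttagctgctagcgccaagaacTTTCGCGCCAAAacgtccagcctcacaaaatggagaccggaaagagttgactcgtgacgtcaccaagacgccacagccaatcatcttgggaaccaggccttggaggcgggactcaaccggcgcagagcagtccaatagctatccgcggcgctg
Mcm6: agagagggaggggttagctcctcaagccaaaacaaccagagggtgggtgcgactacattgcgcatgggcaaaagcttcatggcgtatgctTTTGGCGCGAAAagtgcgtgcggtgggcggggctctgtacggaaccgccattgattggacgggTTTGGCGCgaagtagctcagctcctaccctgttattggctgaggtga
Pola1: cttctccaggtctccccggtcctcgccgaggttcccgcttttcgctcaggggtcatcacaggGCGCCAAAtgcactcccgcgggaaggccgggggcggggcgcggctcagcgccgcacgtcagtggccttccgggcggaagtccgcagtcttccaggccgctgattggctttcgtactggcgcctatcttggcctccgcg

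Levels are given as TMM-scaled RPKM, that is, reads per kilobase of transcript relative to the TMM-scaled total of each library's tested genes, so they may be compared between genes. A gene is called when the quasi-likelihood test of edgeR gives an adjusted p under 0.05 over the 10702 genes tested. A log2 fold change is given ± its standard error (SE). Libraries held between 16581624 and 58182835 reads in genes, counted on the transcript kept for each symbol. The labelled cell type held: 7 of 7 Treg and T cell markers were tested, with summed levels of 1998 to 2024 in controls, 2886 to 2961 after WT IL-2 and 2911 to 2944 after ortho IL-2. Of these, Il2ra, Tnfrsf18 and Foxp3 were higher in every stimulated library than in every control, Cd4, Ctla4 and Ikzf2 were lower in every one, and Cd3e overlapped. Of the markers of other cells, 0 of 4 for B cells, 1 of 5 for myeloid cells (Itgam), 1 of 4 for CD8 T and NK cells (Cd8b1) and 1 of 5 for erythroid and stromal cells (Pecam1) were tested, and Hbb-bs had 0 to 2 reads. Summed levels of 3 of these 4 lists moved with the groups without overlap. Erythroid and stromal markers, nearly all of it Pecam1, were at 83.9 to 88.2 in controls, 66.9 to 68.2 after WT IL-2 and 65.7 to 68.9 after ortho IL-2. Myeloid markers were at 2.28 to 2.78, then 1.46 to 1.84, then 1.55 to 1.67, and CD8 T and NK markers at 4.89 to 5.84, then 5.90 to 6.79, then 6.27 to 6.60. The B cell markers overlapped between groups. Their part in the results was not tested.

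WT IL-2 for 4 h did not move the replication genes as a block. Of 56 members tested, 8 were higher, 12 lower and 36 not called, while 47.9% of all genes tested were called (25.0% higher and 22.9% lower). The share of members called was 35.7%, a difference from all genes that was not tested, and their median log2 fold change was -0.03 against 0.01 over all genes. Groups did not overlap in the higher direction for 9 members and in the lower direction for 20, where the shares over all genes were 30.3% and 28.5%. Ortho IL-2 gave 8 higher, 13 lower and 35 not called, against 56.0% of all genes called (28.5% higher and 27.4% lower), with a median of -0.05 against 0.01. Groups did not overlap for 14 members in the higher and 19 in the lower direction (33.9% and 32.2% of all genes). The 2 comparisons share the no IL-2 libraries. The same 8 members were higher in both: Mcm2, Cdc45, Pold1, Pole2, Rrm2, Chaf1a, Chaf1b and Exo1. Another 10 were lower in both: Mcm4, Mcm6, Dbf4, Rpa1, Tyms, E2f2, Hells, Atad2, Brca1 and Msh6. Gins4 and Pold3 were called lower with WT IL-2 alone, Rfc1, Pola1 and Brca2 with ortho IL-2 alone, and 33 members with neither. Changes were small: those that were called and reached 1.5-fold were Tyms, lower with each cytokine, and Pold1, higher with ortho IL-2. Of all genes, 8.33% rose and 5.53% fell that far with WT IL-2, and 9.72% and 7.54% with ortho IL-2. The plot of fold changes by role shows members of one complex on both sides of 0.

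**Figure D1:**
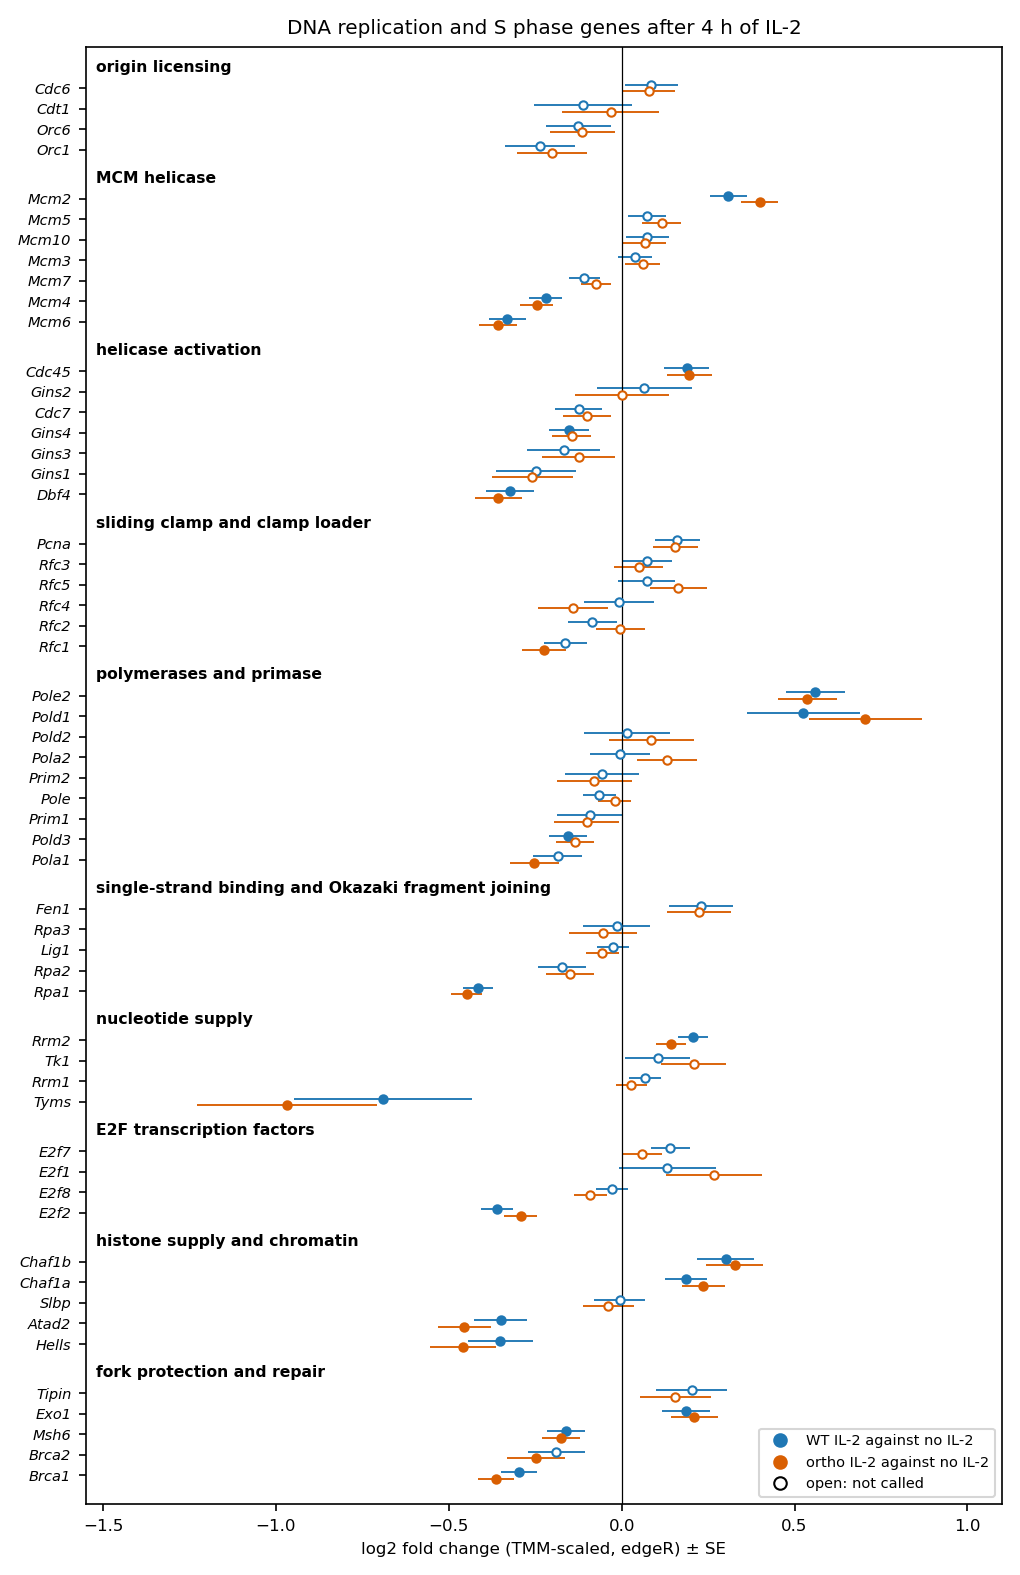
Log2 fold change (horizontal axis, TMM-scaled, edgeR, ± SE, n = 3 libraries per group) of the 56 members tested, ordered by role. Blue is WT IL-2 and orange ortho IL-2, each against no IL-2, and open points were not called. Mcm2, Pole2 and Pold1 lie to the right with both cytokines while Mcm6, Rpa1, E2f2 and Tyms lie to the left.

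These directions depend on how libraries are scaled. The RPKM divisor of the deposited files is larger than the reads in genes, and what the further reads are is not given in the sources used here. Reads counted only on other transcripts of a gene can be part of the divisor beyond the reads in genes. With that divisor alone (unscaled RPKM) the median of all genes moves from 0.01 to 0.22 (WT IL-2) and from 0.01 to 0.29 (ortho IL-2), and the members' medians become 0.19 and 0.23. All changes are therefore given relative to the bulk of genes. On the unscaled values edgeR called 19 members higher and 2 lower after WT IL-2 (43.3% and 8.36% of all genes), and 28 higher and 1 lower after ortho IL-2 (53.3% and 8.84%). All 8 higher calls of each comparison were kept there, but of the lower calls only Rpa1 and Tyms of 12 with WT IL-2 and Tyms of 13 with ortho IL-2. The summed level of the 57 members was 1303 ± 13.4 in controls, 1244 ± 42.5 after WT IL-2 and 1232 ± 21.3 after ortho IL-2 (TMM-scaled RPKM, SD, n = 3 each), but 763.6 ± 34.1, 845.4 ± 43.0 and 874.7 ± 49.5 in RPKM as deposited. With TMM factors estimated over all genes in place of the genes tested, an alternative chosen after the data were seen, WT IL-2 had 11 members higher and 8 lower, and ortho IL-2 13 and 9. The split over all genes was then 30.1% higher and 18.0% lower for WT IL-2, and 35.0% and 20.8% for ortho IL-2.

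Origin licensing genes showed no called change, and 4 of 4 were tested. Of all genes, 47.9% (WT IL-2) and 56.0% (ortho IL-2) were called, a difference that was not tested. Orc1 and Orc6 are subunits of the origin recognition complex. Orc6, the most abundant of the 4, stood at 13.1, 12.4 and 13.1 without IL-2, 10.6, 11.8 and 12.9 with WT IL-2, and 10.7, 13.1 and 12.0 with ortho IL-2 (TMM-scaled RPKM), and the groups overlapped. Its log2 fold changes were -0.13 ± 0.09 and -0.11 ± 0.09 (edgeR adjusted p = 0.294 and 0.324). Orc1 went from 3.81 ± 0.0879 to 3.24 ± 0.384 and 3.30 ± 0.242 (SD, n = 3), groups that did not overlap but differed by less than the test could call (adjusted p = 0.0822 and 0.118). The loading factors Cdc6 (log2 fold changes 0.09 and 0.08) and Cdt1 (-0.11 and -0.03) did not pass the test either. With GC offsets Cdt1 was at -0.30 and -0.32 and was called lower (edgeR adjusted p = 0.00555 and 0.00373). In unscaled RPKM, where the median of all genes also rises, Cdc6 was at 0.30 and 0.36 and was called higher (edgeR adjusted p = 0.0330 and 0.0111).

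The MCM helicase genes moved in opposite directions within one complex. MCM2 to MCM7 form a ring of 1 copy each, so their RNAs are of interest as a set. Mcm2 (chromosome 6, 88883474 to 88898780, GRCm38) stood at 12.1, 13.2 and 12.8 without IL-2, 16.5, 15.2 and 15.3 with WT IL-2, and 16.8, 16.6 and 16.8 with ortho IL-2 (TMM-scaled RPKM). Both stimulated groups were above all the controls. It rose 1.24-fold with WT IL-2 (log2 0.31 ± 0.05, adjusted p = 0.000997) and 1.32-fold with ortho IL-2 (0.40 ± 0.05, adjusted p = 0.000167), and with offsets for GC content by 0.19 and 0.22 on the log2 scale. Mcm6 (chromosome 1, 128331590 to 128359664) was at 42.1, 46.2 and 45.5 without IL-2, at 33.5, 37.2 and 35.7 with WT IL-2, and at 34.1, 35.7 and 34.6 with ortho IL-2. Every stimulated library was below every control, and Mcm6 fell by 0.33 ± 0.05 (adjusted p = 0.000675) and by 0.36 ± 0.05 (adjusted p = 0.000378) on the log2 scale. In unscaled RPKM it was at -0.12 and -0.08 and was not called. Mcm4 (chromosome 16, 15623897 to 15637400), the most abundant MCM gene, was at 49.8, 53.0 and 50.3, then 41.8, 45.8 and 43.9, then 41.9, 44.2 and 43.1. It fell by 0.22 ± 0.05 (adjusted p = 0.00417) and by 0.25 ± 0.05 (adjusted p = 0.00198), although in unscaled RPKM it was at -0.01 with WT IL-2 and turned to 0.03 with ortho IL-2.

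The other subunits were not called: Mcm3 (log2 fold changes 0.04 and 0.06), Mcm5 (0.07 and 0.12) and Mcm7 (-0.11 and -0.07), nor was the initiation factor Mcm10 (0.07 and 0.07). Mcm7 shares exon sequence with Mir25 and Mir93 on its own strand and with Cops6 and Ap4m1 on the other. Exon overlap with another annotated gene was found for 20 of the 57 members, on the same strand for 3. Cdc45, for example, overlaps Ufd1 on the other strand. The handling of strand is not given in the sources used here, so reads of these members may be shared. Ratios between subunits do not depend on the scaling between libraries. They are not corrected for GC content, which can differ within a pair (55.5% for Mcm2 and 45.5% for Mcm4). With GC offsets Mcm2 was at 0.22 and Mcm4 at -0.14 with ortho IL-2, in place of 0.40 and -0.25. The ratios were chosen after the values were seen and carry no test. The ratio of Mcm2 to Mcm6 levels was 0.287, 0.286 and 0.280 without IL-2, 0.495, 0.409 and 0.429 with WT IL-2, and 0.492, 0.464 and 0.486 with ortho IL-2, with no overlap between control and stimulated libraries. The ratio of Mcm2 to Mcm4 was 0.248 ± 0.00554, 0.359 ± 0.0329 and 0.389 ± 0.0129 in the same order (SD, n = 3).

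**Figure D2:**
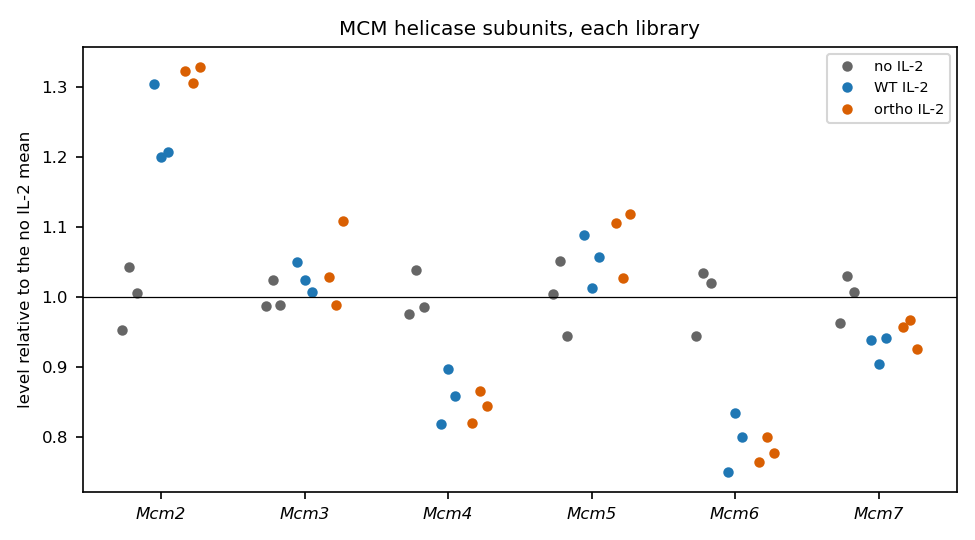
Level of each MCM ring subunit in each library, divided by the mean of the 3 no IL-2 libraries (vertical axis, ratio; the axis does not start at 0). Each point is a library of the no IL-2 (grey), WT IL-2 (blue) or ortho IL-2 (orange) group. Mcm2 lies above the controls and Mcm4 and Mcm6 below them on the TMM scale, and in unscaled RPKM Mcm4 with ortho IL-2 turned to a log2 fold change of 0.03.

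Among 7 genes of helicase activation, Cdc45 was higher with both cytokines and Dbf4 lower with both. The share called was 42.9% (WT IL-2) and 28.6% (ortho IL-2), against 47.9% and 56.0% of all genes, a difference that was not tested. Dbf4, the activating subunit of the Cdc7 kinase (chromosome 5, 8396973 to 8422716), was at 43.6, 45.3 and 43.7 without IL-2, 32.3, 37.9 and 35.8 with WT IL-2, and 35.3, 36.5 and 31.9 with ortho IL-2 (TMM-scaled RPKM). No stimulated library reached the controls. It fell by 0.32 ± 0.07 (adjusted p = 0.00348) and by 0.36 ± 0.07 (adjusted p = 0.00182) on the log2 scale, but was at -0.11 and -0.08, not called, in unscaled RPKM. Its kinase Cdc7 was not called (-0.12 and -0.10), and the ratio of Cdc7 to Dbf4 was 0.250 ± 0.00622, 0.289 ± 0.0207 and 0.300 ± 0.0356 (SD, n = 3). Cdc45, which travels with the helicase, went from 11.7 ± 0.886 to 13.4 ± 0.121 and 13.4 ± 0.482 (log2 0.19 ± 0.07 and 0.20 ± 0.07, adjusted p = 0.0387 and 0.0286). Its call with WT IL-2 held in 2 of 9 fits that each left out 1 library, with an adjusted p of up to 0.123 without no IL-2 replicate 3. Of the GINS subunits, Gins4 fell with WT IL-2 at the edge of the threshold (-0.15 ± 0.06, adjusted p = 0.0498), a call that held in 1 of the 9 fits and turned to 0.07 in unscaled RPKM. With ortho IL-2 it had an adjusted p of 0.0529. Gins1 (-0.25 and -0.26), Gins2 (0.07 and 0.00) and Gins3 (-0.17 and -0.12) were not called.

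The sliding clamp was the most abundant product of the set. Pcna stood at 134, 130 and 125 without IL-2, 131, 152 and 152 with WT IL-2, and 146, 150 and 137 with ortho IL-2 (TMM-scaled RPKM). The ortho IL-2 libraries lay above the controls and the WT IL-2 libraries overlapped them. The log2 fold change was 0.16 ± 0.07 in each comparison, which missed the threshold (adjusted p = 0.0668 and 0.0672). With GC offsets Pcna was at 0.22 and 0.26 and was called (edgeR adjusted p = 0.000224 and 6.55e-05). In unscaled RPKM it was at 0.38 and 0.43, also called. Of the 5 clamp loader genes, Rfc1, which encodes the large subunit (chromosome 5, 65261850 to 65335670), was at 30.2, 30.6 and 31.5, then 24.9, 29.6 and 27.9, then 26.5, 27.4 and 25.1. It fell with ortho IL-2 by 0.22 ± 0.06 (adjusted p = 0.0133), turning to 0.05 in unscaled RPKM, and was not called with WT IL-2 (-0.16 ± 0.06, adjusted p = 0.0567). The interval of its difference between the cytokines, -0.20 to 0.08, holds 0. Rfc2, Rfc3, Rfc4 and Rfc5 were between -0.14 and 0.16 in both comparisons and were not called.

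Polymerase subunits gave the largest rises of the set. Pole2, the second subunit of the leading strand polymerase epsilon (chromosome 12, 69201773 to 69228195), was at 5.34, 6.07 and 5.45 without IL-2, 8.30, 8.38 and 8.19 with WT IL-2, and 7.52, 8.21 and 8.72 with ortho IL-2 (TMM-scaled RPKM). The stimulated libraries stood well apart from the controls, and Pole2 rose 1.47-fold (log2 0.56 ± 0.09, adjusted p = 0.000433) and 1.45-fold (0.54 ± 0.09, adjusted p = 0.000526). The annotated gene Gm49384 overlaps its exons on the same strand, so its reads may be shared. Pole, the catalytic subunit, did not pass the test (-0.07 and -0.02), and the ratio of Pole2 to Pole was 0.645 ± 0.0250, 0.996 ± 0.0246 and 0.952 ± 0.108 (SD, n = 3), with no overlap. Pold1, the catalytic subunit of the lagging strand polymerase delta (chromosome 7, 44532746 to 44548849), was at 9.15, 8.67 and 8.14, then 15.6, 10.4 and 11.5, then 14.4, 11.4 and 16.4. The stimulated libraries were above the controls but spread widely. Pold1 rose 1.44-fold (0.53 ± 0.16, adjusted p = 0.0231) and 1.63-fold (0.71 ± 0.16, adjusted p = 0.00479). Its transcript is the richest in GC of the members, at 60.7%, and with an offset for GC content the log2 fold changes were 0.29 and 0.36, still called. The call with WT IL-2 was lost when no IL-2 replicate 2, no IL-2 replicate 3 or else the first WT IL-2 replicate was left out, with an adjusted p of up to 0.0747 and a log2 fold change down to 0.33.

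Pold3, an accessory subunit of polymerase delta, was at 21.2, 21.6 and 22.6, then 18.3, 20.5 and 19.9, then 19.8, 20.4 and 19.4. It fell with WT IL-2 by 0.16 ± 0.05 (adjusted p = 0.039), turning to 0.06 in unscaled RPKM, and was not called with ortho IL-2 (-0.13 ± 0.05, adjusted p = 0.0591). Its call held in 3 of the 9 fits that left out 1 library. The ratio of Pold1 to Pold3 was 0.398 ± 0.0359, 0.645 ± 0.183 and 0.711 ± 0.145 (SD, n = 3). Pola1, the catalytic subunit of polymerase alpha, went from 10.6 ± 0.283 to 9.31 ± 0.785 and 8.89 ± 0.562. It fell with ortho IL-2 by 0.25 ± 0.07 (adjusted p = 0.0130), turning to 0.02 in unscaled RPKM, and was not called with WT IL-2 (-0.18 ± 0.07, adjusted p = 0.0547). With GC offsets its change with ortho IL-2 was -0.04 and was not called. The call was also lost without no IL-2 replicate 1 or ortho IL-2 replicate 3. Pold2, Pola2 and the primase subunits Prim1 and Prim2 lay between -0.10 and 0.13 and were not called.

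Of 5 genes for the binding of single-stranded DNA and the joining of Okazaki fragments, Rpa1 alone was called. Calls took in 47.9% (WT IL-2) and 56.0% (ortho IL-2) of all genes, and the difference was not tested. Rpa1 encodes the large subunit of replication protein A, which coats single-stranded DNA (chromosome 11, 75298166 to 75348324). It was at 78.3, 82.8 and 80.4 without IL-2, 57.7, 62.5 and 60.9 with WT IL-2, and 58.8, 59.2 and 58.9 with ortho IL-2 (TMM-scaled RPKM). The control and stimulated libraries were far apart, and Rpa1 fell by 0.42 ± 0.04 (adjusted p = 3.51e-05) and by 0.45 ± 0.04 (adjusted p = 2.02e-05), the smallest adjusted p of the members in each comparison. In unscaled RPKM it was at -0.20 and -0.17. The gene Gm47300 overlaps its exons on the same strand. The partner subunits Rpa2 (-0.17 and -0.15) and Rpa3 (-0.01 and -0.05) were not called, and the ratio of Rpa1 to Rpa3 was 2.28 ± 0.151, 1.74 ± 0.162 and 1.73 ± 0.102 (SD, n = 3), without overlap. The flap nuclease gene Fen1 (0.23 and 0.22) and the ligase gene Lig1 (-0.02 and -0.06) did not pass the test.

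**Figure D3:**
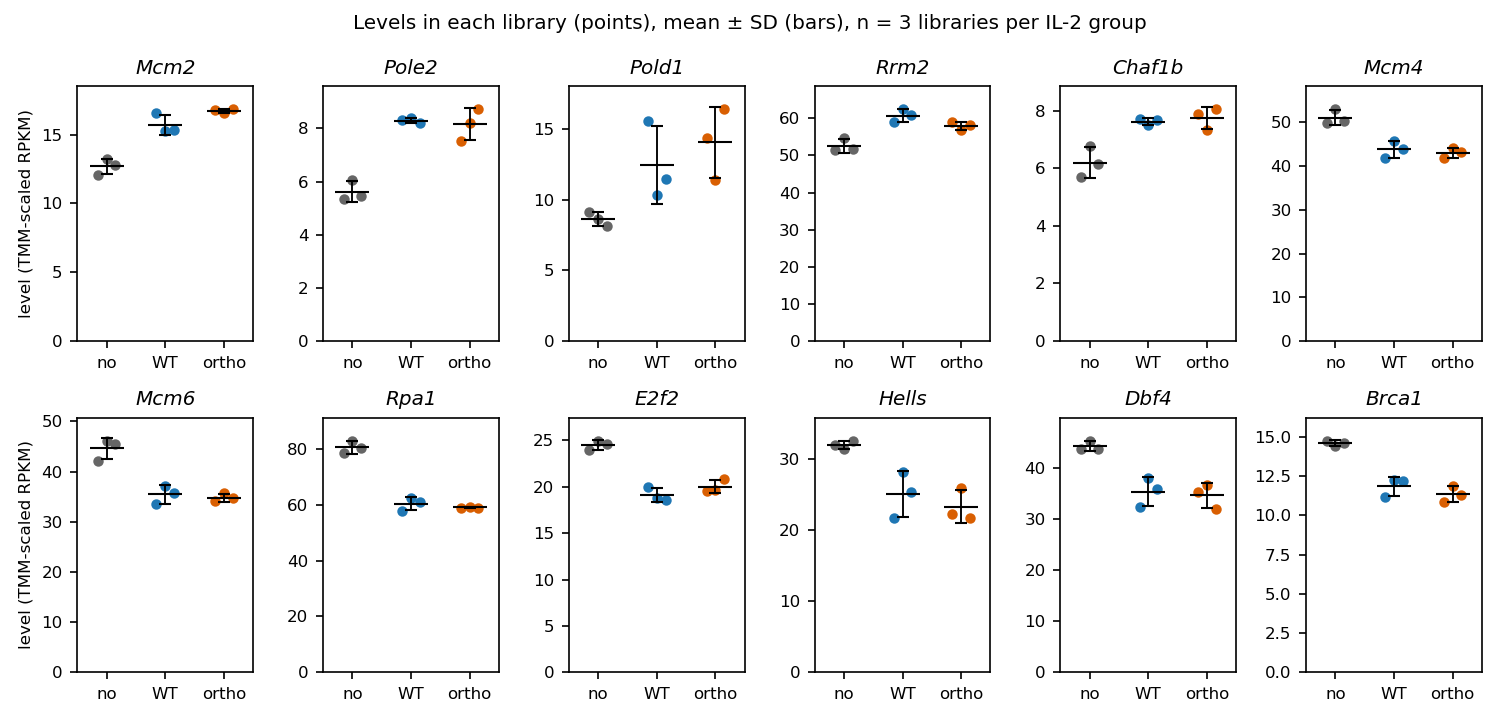
Level in each library (points, TMM-scaled RPKM, axes from 0) of 12 members called with both cytokines, with the mean and SD of the 3 libraries of each group (bars). Mcm2, Pole2, Pold1, Rrm2 and Chaf1b are higher after IL-2 and Mcm4, Mcm6, Rpa1, E2f2, Hells, Dbf4 and Brca1 lower, where Mcm4 with ortho IL-2 turned to a log2 fold change of 0.03 in unscaled RPKM.

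Nucleotide supply genes split in the same way. Rrm2, the small subunit of ribonucleotide reductase, which makes deoxynucleotides (chromosome 12, 24708241 to 24714146), was at 51.4, 54.7 and 51.8 without IL-2, 58.9, 62.5 and 60.8 with WT IL-2, and 59.1, 57.0 and 58.1 with ortho IL-2 (TMM-scaled RPKM). Both stimulated groups were above the controls, and Rrm2 rose by 0.21 ± 0.04 (adjusted p = 0.00336) and 0.14 ± 0.04 (adjusted p = 0.0197). The call with ortho IL-2 was lost without no IL-2 replicate 1, no IL-2 replicate 3 or ortho IL-2 replicate 1, with an adjusted p of up to 0.0826. The large subunit gene Rrm1 (0.07 and 0.03) and the thymidine kinase gene Tk1 (0.10 and 0.21) were not called. With GC offsets Rrm1 was at 0.15 and 0.16 and was called (edgeR adjusted p = 0.00157 and 0.000854). The ratio of Rrm2 to Rrm1 was 1.27 ± 0.0591, 1.40 ± 0.0272 and 1.37 ± 0.0522 (SD, n = 3), where ortho IL-2 overlapped the controls.

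Tyms, the thymidylate synthase that makes the thymine nucleotide (chromosome 5, 30058202 to 30073617), had the largest fold change and the largest spread. It was at 28.4, 22.7 and 20.9 without IL-2, 15.1, 10.6 and 19.0 with WT IL-2, and 17.4, 9.91 and 9.51 with ortho IL-2 (TMM-scaled RPKM). All stimulated libraries were below the controls, WT IL-2 replicate 3 by little. The log2 fold changes were -0.69 ± 0.26 (adjusted p = 0.0492) and -0.97 ± 0.26 (adjusted p = 0.0104). The row that stands for Tyms is a noncoding RefSeq transcript of 3808 bases, and the coding transcript of 3798 bases had the same reads to within 1 in every library. With reads summed over transcripts the change was -0.69 with WT IL-2, not called (edgeR adjusted p = 0.0507), and -0.96 with ortho IL-2 (adjusted p = 0.0109). Its pseudogene Tyms-ps on chromosome 10, the one pseudogene row that carries a member's symbol, stood at 46.6, 31.4 and 27.8 without IL-2, 14.8, 5.93 and 22.3 with WT IL-2, and 17.5, 6.96 and 3.63 with ortho IL-2, with log2 fold changes of -1.30 ± 0.55 (adjusted p = 0.0757) and -1.93 ± 0.57 (adjusted p = 0.0163). How the authors' counting split reads between such copies is not given in the sources used here, so the values of Tyms are uncertain. The share of the RPKM divisor beyond the reads in genes was 43.3%, 38.9% and 39.3% without IL-2, 31.1%, 29.1% and 34.9% with WT IL-2, and 33.0%, 29.5% and 25.7% with ortho IL-2, so it moved with the groups. Within each stimulated group and among the controls, the library with the highest share had the highest Tyms level. With the share as a covariate, the change of Tyms became 0.31 and 0.30 and was not called (adjusted p = 0.299 and 0.446). The call with WT IL-2 was also lost when any single control library, or the first or the second WT IL-2 library, was left out, with an adjusted p of up to 0.165 and a log2 fold change down in size to -0.50.

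**Figure D4:**
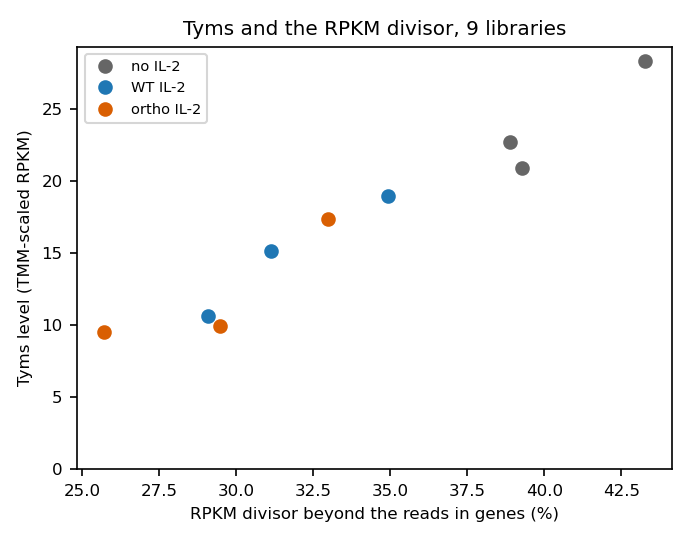
Tyms level (vertical axis, TMM-scaled RPKM, from 0) against the share of the RPKM divisor beyond the reads in genes (percent, horizontal axis) in each of the 9 libraries, coloured by group. The no IL-2 libraries lie at 38.9% to 43.3% with levels of 20.9 to 28.4, above the stimulated libraries on both axes.

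The same covariate bears on every member. With it, edgeR called 0 members higher and 4 lower with WT IL-2 (Mcm4, Mcm6, Rpa1 and E2f2), and 0 higher and 3 lower with ortho IL-2 (Mcm6, Rpa1 and E2f2), and 8 members had an unadjusted p under 0.05 in each comparison. Of all genes, 11.4% were then called higher and 8.53% lower for WT IL-2, and 8.64% and 6.05% for ortho IL-2. The share is nearly tied to the presence of IL-2 in these libraries, so the share and the treatment cannot be told apart. The log2 fold changes of the 8 higher members stayed positive with it in both comparisons, such as 0.25 and 0.33 for Mcm2.

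The 4 E2F genes did not move together. E2F1 and E2F2 are activators, E2F7 and E2F8 are repressors that lack the retinoblastoma binding region. E2f2 (chromosome 4, 136172394 to 136196057), the most abundant of the 4, was at 24.0, 25.0 and 24.6 without IL-2, 19.9, 18.8 and 18.6 with WT IL-2, and 19.5, 19.7 and 20.8 with ortho IL-2 (TMM-scaled RPKM). No stimulated library reached the controls, and E2f2 fell by 0.36 ± 0.05 (adjusted p = 0.000152) and by 0.29 ± 0.05 (adjusted p = 0.00056). In unscaled RPKM these were -0.15 and -0.01, neither of them called. E2f1 was at 3.28, 3.18 and 3.80, then 4.47, 3.16 and 3.54, then 3.93, 3.81 and 4.50. Its WT IL-2 libraries overlapped the controls, and its log2 fold changes of 0.13 ± 0.14 and 0.27 ± 0.14 were not called (adjusted p = 0.458 and 0.127). E2f7 was at 5.88, 5.63 and 6.22, then 6.44, 6.31 and 6.77, then 6.20, 6.01 and 6.23. It was not called (0.14 ± 0.06 and 0.06 ± 0.06, adjusted p = 0.0647 and 0.390). E2f8 was at 14.3, 15.0 and 15.0, then 14.1, 15.0 and 14.4, then 14.0, 14.0 and 13.6, and was not called (-0.03 ± 0.05 and -0.09 ± 0.05, adjusted p = 0.648 and 0.125).

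Among 5 chromatin genes of S phase, 4 were called with each cytokine, 2 higher and 2 lower, where 47.9% and 56.0% of all genes were called, a difference that was not tested. Chaf1a and Chaf1b encode the large and middle subunits of chromatin assembly factor 1, which loads histones behind the fork. Chaf1b went from 6.19 ± 0.541 to 7.62 ± 0.107 and 7.75 ± 0.382, and rose by 0.30 ± 0.08 (adjusted p = 0.0133) and 0.33 ± 0.08 (adjusted p = 0.00767), with the first of these calls lost without no IL-2 replicate 1 (adjusted p = 0.0604). Chaf1a stood at 10.3, 10.4 and 9.35, then 11.7, 11.3 and 11.2, then 11.8, 12.4 and 11.2, without overlap, and rose by 0.18 ± 0.06 (adjusted p = 0.0306) and 0.24 ± 0.06 (adjusted p = 0.00882). With GC offsets Chaf1a was at 0.08 and 0.07 and was not called. With WT IL-2 its call held in 5 of the 9 fits that left out 1 library.

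The chromatin remodeller gene Hells (chromosome 19, 38930915 to 38971051) was at 31.9, 31.4 and 32.6 without IL-2, 21.7, 28.2 and 25.4 with WT IL-2, and 22.3, 26.0 and 21.7 with ortho IL-2 (TMM-scaled RPKM). All stimulated libraries were lower, and Hells fell by 0.35 ± 0.09 (adjusted p = 0.0124) and by 0.46 ± 0.10 (adjusted p = 0.00267). Its transcript has the lowest GC content of the members, 37.7%, and with GC offsets its changes were -0.14 and -0.14, still called. In unscaled RPKM they were -0.14 and -0.18, not called. Atad2, a bromodomain ATPase, went from 57.5 ± 1.54 to 45.1 ± 4.68 and 42.0 ± 2.86, and fell by 0.35 ± 0.08 (adjusted p = 0.00419) and by 0.45 ± 0.08 (adjusted p = 0.000811). With GC offsets it was at -0.21 and -0.24, still called, and in unscaled RPKM at -0.14 and -0.18, not called. Slbp, which binds the stem-loop of histone mRNAs, was at 77.3, 73.7 and 70.7, then 68.3, 80.1 and 72.7, then 70.3, 78.7 and 67.4. Its groups overlapped and it was not called (-0.01 and -0.04).

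Among 5 genes of fork protection and repair, WT IL-2 gave 1 higher and 2 lower and ortho IL-2 gave 1 higher and 3 lower. Over all genes 25.0% were higher and 22.9% lower, then 28.5% and 27.4%, and the difference was not tested. Brca1, a factor of recombination at broken forks (chromosome 11, 101488764 to 101551955), was at 14.8, 14.4 and 14.6 without IL-2, 11.2, 12.2 and 12.2 with WT IL-2, and 10.9, 11.9 and 11.3 with ortho IL-2 (TMM-scaled RPKM). The groups were far apart, and Brca1 fell by 0.30 ± 0.05 (adjusted p = 0.00104) and by 0.36 ± 0.05 (adjusted p = 0.000268), but was at -0.08 in each comparison, not called, in unscaled RPKM. Brca2, which loads the recombinase, went from 3.99 ± 0.264 to 3.50 ± 0.330 and 3.36 ± 0.215. It fell with ortho IL-2 by 0.25 ± 0.08 (adjusted p = 0.0285), turning to 0.03 in unscaled RPKM, and was not called with GC offsets (-0.06) or with WT IL-2 (-0.19 ± 0.08, adjusted p = 0.0854). Msh6, a mismatch sensor (chromosome 17, 87975062 to 87990892), was at 45.1, 43.2 and 44.3, then 38.5, 41.4 and 38.8, then 38.5, 42.1 and 37.0. It was lower in all stimulated libraries, by -0.16 ± 0.06 (adjusted p = 0.0367) and -0.18 ± 0.06 (adjusted p = 0.0221), but turned to 0.06 and 0.10 in unscaled RPKM.

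The nuclease gene Exo1, one of the least abundant members, went from 1.97 ± 0.0719 to 2.24 ± 0.0113 and 2.28 ± 0.0415. It rose by 0.19 ± 0.07 (adjusted p = 0.0466) and 0.21 ± 0.07 (adjusted p = 0.025). Its call held in 0 of the 9 fits that left out 1 library with WT IL-2 (adjusted p of 0.0613 to 0.126) and in 4 of 9 with ortho IL-2. Tipin, which stabilises stalled forks, was not called (0.20 and 0.16), but with GC offsets it was at 0.35 and 0.38 and was called (edgeR adjusted p = 0.000226 and 0.000111).

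Leaving out single libraries left 11 of the 20 calls with WT IL-2 in place in all 9 fits, and 15 of the 21 with ortho IL-2. Members with both calls kept throughout were Mcm2 and Pole2 among those higher, and Mcm4, Mcm6, Dbf4, Rpa1, E2f2, Hells, Atad2 and Brca1 among those lower. Calls with WT IL-2 were lost without no IL-2 replicate 1 for Gins4, Pold3, Tyms, Chaf1b, Chaf1a, Exo1 and Msh6 and without no IL-2 replicate 3 for Cdc45, Gins4, Pold1, Pold3, Tyms, Chaf1a, Exo1 and Msh6. Adjusted p reached 0.180 for Gins4, 0.126 for Pold3, 0.112 for Msh6 and 0.105 for Chaf1a in these fits. Without no IL-2 replicate 2, Cdc45, Pold1, Pold3, Tyms, Exo1 and Msh6 lost it, as did Cdc45, Gins4, Pold1, Pold3, Tyms, Chaf1a, Exo1 and Msh6 without WT IL-2 replicate 1. Each of the other WT or ortho IL-2 libraries took with it between 2 and 5 of the 20 calls. With ortho IL-2, calls lost without 1 library were those of Cdc45, Pola1, Rrm2, Brca2, Exo1 and Msh6, with adjusted p of up to 0.0956, 0.0512, 0.0826, 0.102, 0.0758 and 0.0791. Without no IL-2 replicate 3 or ortho IL-2 replicate 3, 5 of the 21 calls were lost, and without any other control or ortho IL-2 library 2 or 4. The largest p for Brca2 and Msh6 was without ortho IL-2 replicate 3, the most deeply sequenced library.

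The GC content of the transcripts overlapped between higher and lower members, and no test was made. It ran from 44.7% (Pole2) to 60.7%, with a median of 51.5%, in the 8 members higher with both cytokines. In those lower it ran from 37.7% to 56.6% (E2f2), with medians of 48.2% for the 12 lower with WT IL-2 and 46.2% for the 13 lower with ortho IL-2. Levels differed too, with a median of 11.4 for the higher members, 32.4 and 28.2 for the lower and 12.7 and 13.9 for those not called (TMM-scaled RPKM). Members not called had medians of 49.4% and 49.8%. With per-library offsets for GC content, edgeR called 11 members higher and 16 lower for WT IL-2 (29.4% and 27.7% of all genes), and 11 and 17 for ortho IL-2 (30.1% and 29.9%). Of the calls reported, 7 of 8 higher and 12 of 12 lower were kept with WT IL-2, and 7 of 8 and 11 of 13 with ortho IL-2. Members called in neither comparison as reported but in both with the offsets were Pcna, Rrm1 and Tipin, higher, and Cdt1, Mcm7 and Rpa2, lower. Pcna, Rrm1 and Tipin were called higher in both comparisons in unscaled RPKM as well. Sizes moved further than 1.5 times, with the calls kept, for ortho IL-2 in Mcm4 (-0.14), Dbf4 (-0.23), Rfc1 (-0.14), Chaf1b (0.21), Rrm2 (0.24) and E2f2 (-0.50), beside the members given above.

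No member differed between ortho and WT IL-2. By edgeR, 0 of 56 were called (0 of all 10702 genes, 0%), and 0 members and 149 genes had an unadjusted p under 0.05. DESeq2 called 0 genes as well, with 0 members and 114 genes at an unadjusted p under 0.05. Without WT IL-2 replicate 1 edgeR still called 0, but 12 members and 2616 genes had an unadjusted p under 0.05. The median difference of the members was -0.01 on the log2 scale, as it was over all genes. The closest was Mcm2, with 15.7 ± 0.740 against 16.7 ± 0.144 (TMM-scaled RPKM, SD, n = 3), libraries that did not overlap, an unadjusted p of 0.111 and an adjusted p of 0.909 in edgeR. E2f7 and E2f8 were the other members whose ortho and WT libraries did not overlap, both lower with ortho IL-2 (differences of -0.08 and -0.06), where 2.23% of all genes did so (2.42% in the higher direction). A missed threshold does not show that values are alike, so the 95% intervals of the difference are of use. They lay within 1.2-fold in either direction for 40 members and within 1.5-fold for 55. Tyms was the exception, at -0.86 to 0.30 on the log2 scale. The interval of Pold1 was -0.17 to 0.53 and that of Pole2 -0.38 to 0.33. These intervals rest on a spread shared by all 9 libraries. Taken group by group, the coefficient of variation between libraries was 5.3% for controls, 10.7% for the WT group and 10.3% for the ortho group. The shared spread may therefore not suit this comparison, and whether the intervals are too narrow or too wide was not tested. In an edgeR fit of only the 6 libraries compared, 77 genes had an unadjusted p under 0.05, beside the 149 above. The intervals between the cytokines hold for the doses used, which were not matched.

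Other genes of the same pathways were taken from 4 lists of 80 genes, 79 of them tested. As a yardstick, WT IL-2 calls over the whole tested set ran to 25.0% up and 22.9% down. Those of ortho IL-2 ran to 28.5% up and 27.4% down. No list was tested against these shares. In further replication machinery, WT IL-2 raised 5 of 32 and lowered 5, and ortho IL-2 raised 5 and lowered 8. Dna2, a nuclease and helicase of Okazaki fragment processing, rose from 2.19 ± 0.0791 to 5.13 ± 0.129 after WT IL-2 and 5.03 ± 0.135 after ortho IL-2 (log2 1.23 and 1.21, adjusted p = 2.95e-07 and 3.54e-07). Pole4, an accessory subunit of polymerase epsilon like Pole2, rose by 0.56 and 0.54, and Chtf8, of an alternative clamp loader, by 0.37 and 0.42. Timeless, the partner of Tipin, fell by 0.30 and 0.31, and Donson, a factor of helicase assembly, fell by 0.24 and 0.28. In unscaled RPKM Timeless was at -0.09 and -0.03 and Donson at -0.03 and -0.01, neither of them called. The median of the list was -0.01 and -0.06, against 0.01 over all genes.

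Nucleotide supply beyond the members held the largest rises, with 8 of 18 higher and 4 lower with each cytokine and medians of 0.26 and 0.22. Cad, the enzyme that starts pyrimidine synthesis, rose from 3.05 ± 0.151 to 12.9 ± 1.54 and 12.9 ± 1.46 (log2 2.09 in each, adjusted p = 2.09e-07 and 2.15e-07). Nme1, a nucleoside diphosphate kinase, rose by 1.85 and 1.91, Shmt1, of one-carbon metabolism, by 1.72 and 1.72, and Ctps, CTP synthase, by 1.48 and 1.44. The salvage kinase Dck fell by 0.53 and 0.59. Samhd1, which degrades deoxynucleotides, fell by 0.15 and 0.20, but turned to 0.06 and 0.08 in unscaled RPKM.

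In the E2F and retinoblastoma network, 5 of 17 rose and 6 fell after WT IL-2, and 5 rose and 7 fell after ortho IL-2, with medians of -0.09 and -0.10. E2f3, another activator, rose by 0.73 and 0.65, Tfdp1, the usual dimer partner of E2F proteins, by 0.60 and 0.58, and E2f4 by 0.49 and 0.60. Rb1, the retinoblastoma protein gene, fell by 0.64 and 0.74 (69.0 ± 2.16 to 44.3 ± 3.98 and 41.4 ± 2.96), and Tfdp2 by 0.62 and 0.62. The cyclin genes of S phase entry moved apart: Ccne1 rose by 0.38 and 0.26, while Ccne2 fell by 0.38 and 0.53. Among genes of histone supply and chromatin, 5 of 12 rose and 3 fell after WT IL-2, and 5 rose and 4 fell after ortho IL-2, with medians of 0.07 and 0.07. Rbbp7, a histone chaperone, rose by 0.88 and 0.80, Asf1b by 0.28 and 0.40 and Uhrf1 by 0.29 and 0.30, while Asf1a fell by 0.31 and 0.43 and Npat, the activator of histone genes, by 0.33 and 0.46. With GC offsets Asf1a was at -0.10 and -0.13 and was not called (adjusted p = 0.280 and 0.169), Npat was at -0.17 and -0.22, Ccne2 at -0.14 and -0.17, and, with ortho IL-2, Uhrf1 at 0.18, Chtf8 at 0.27 and Ccne1 at 0.17, where Ccne1 was not called (adjusted p = 0.102).

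**Figure D5:**
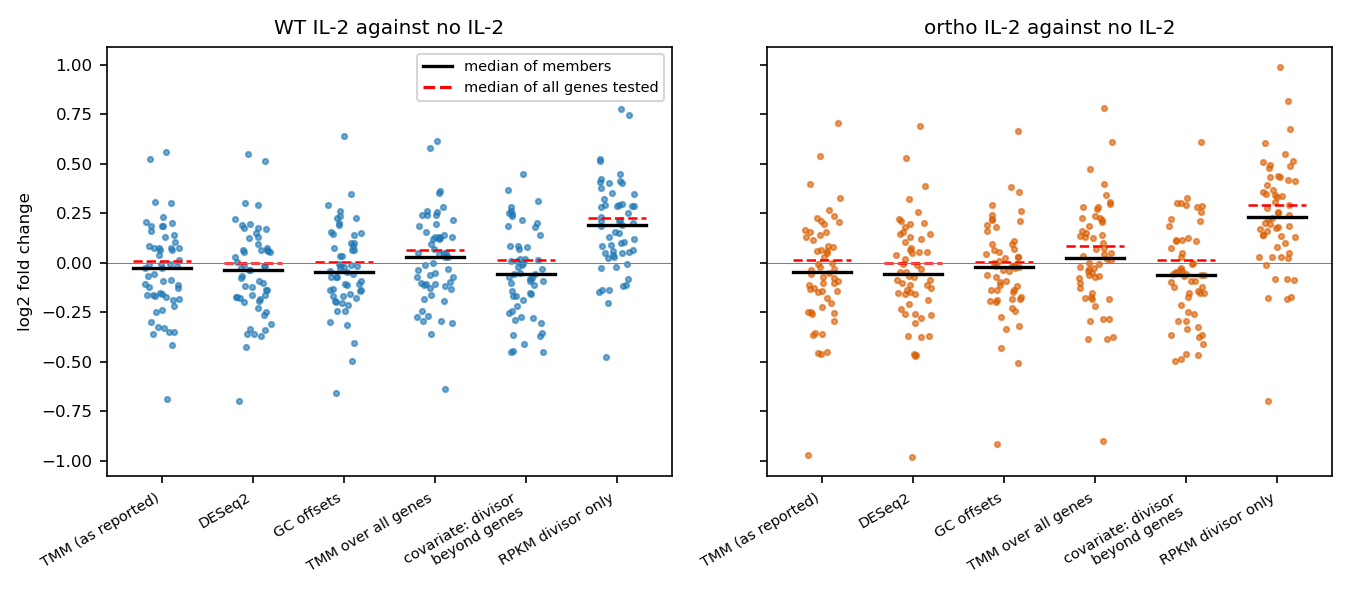
Log2 fold change of the 56 members (points) under 6 ways of scaling or modelling, for WT IL-2 (left) and ortho IL-2 (right) against no IL-2. Black lines are members' medians and red dashed lines medians of all genes tested, which move together, from near 0 as reported to 0.19 and 0.22 with WT IL-2 and 0.23 and 0.29 with ortho IL-2 with the deposited RPKM divisor alone.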

How the data were processed

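Members and the other gene lists were chosen with earlier results of these data known. The deposited files give, per the file headers, reads per RefSeq transcript (raw counts) and RPKM, 1 file per library, on mm10. The submitters' processing notes name edgeR, bedtools 2.25.0, SAMtools 0.1.8, TopHat2 and Bowtie2. What each did is not given in the sources used here, nor are the counter, the annotation release and the handling of strand. Each deposited RPKM is, by its values, the reads per kilobase over 1 whole number per library that exceeds the reads in genes.

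Of 31682 transcripts, the one with the most reads over 9 libraries was kept for each of 23992 symbols. Genes with RPKM of at least 1 in at least 3 libraries were tested (10702). Counts were tested with edgeR 4.0.16 (R 4.3.3; TMM over tested genes, group means over 9 libraries, quasi-likelihood test, Benjamini-Hochberg over all genes tested, threshold 0.05), after the scripts were tested on simulated data. Intervals are 95%. Levels are RPKM rescaled by TMM library sizes, and depth was 16581624 to 58182835 reads in genes. A count of 0 allows up to 3 reads. Alternatives were DESeq2 1.42.0, limma 3.58.1 on log2 of RPKM plus 0.5 or 0.1 or after quantile normalisation, other size factors, filters, GC offsets (GC known for 10657 genes), a covariate for the share of the divisor beyond the reads in genes, a replicate block, and leaving out each library. Values in every library were given for members called in both comparisons with a log2 change of at least 0.5, for the most changed and the most abundant member of each role, and for the E2F genes. Mcm6, Atad2, Chaf1b, the subunit ratios and other members given in full were chosen after their values were seen. Coordinates are from GENCODE M21 (GRCm38).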

Additional observations from a re-analysis of the deposited data

How the results depend on the processing

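Counts of called members, given as higher and lower, were 8 and 12 for WT IL-2 and 8 and 13 for ortho IL-2, each against no IL-2. With the RPKM divisor alone, limma with pseudocount 0.5 and limma with pseudocount 0.1 they were 19 and 2, 20 and 0, and 20 and 0 for WT IL-2, and 28 and 1, 27 and 1, and 27 and 1 for ortho IL-2, because these scalings move all genes. Of the 10702 genes tested, these settings called 4630 and 895, 4482 and 851, and 4495 and 839 for WT IL-2. For ortho IL-2 they called 5707 and 946, 5606 and 919, and 5605 and 914. Members' medians then were 0.19, 0.18 and 0.19 for WT IL-2, 0.23, 0.22 and 0.22 for ortho IL-2, and 0.056, 0.051 and 0.055 for ortho against WT IL-2. The covariate for the share of the divisor beyond genes gave 0 and 4 (median -0.055) for WT IL-2 and 0 and 3 for ortho IL-2. Quantile normalisation gave 5 higher with WT IL-2, where 2457 of the 10702 genes tested were higher. TMM over all genes, chosen after seeing the data, gave 13 higher with ortho IL-2 and medians of 0.029 and 0.026. No filter on low genes gave medians of 0.030 and 0.018, and a minimum RPKM of 5 gave -0.063 with WT IL-2. The cause of these shifts was not tested.

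Deviations from the group means correlated from -0.62 to 0.40 between same-numbered libraries, and from -0.51 to 0.57 between libraries of different number. With 3 libraries per group, such correlations cannot show whether same-numbered libraries share a culture, animal or batch. With the replicate block, edgeR called 6 members higher and 11 lower for WT IL-2 and 6 and 13 for ortho IL-2, and with GC offsets as well 11 and 16, and 11 and 17. Of the 10702 genes tested, the block alone called 2515 higher and 2273 lower for WT IL-2, and 2846 and 2806 for ortho IL-2. With GC offsets as well, these were 3048 and 2853, and 3130 and 3091.

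Leaving out 1 library gave 5 to 7 members higher and 8 to 12 lower for WT IL-2 (median from -0.059, without WT IL-2 replicate 2, to -0.021), and 5 to 11 higher and 10 to 15 lower for ortho IL-2 (median from -0.071 to -0.032). Of the 10702 genes tested, these fits called 2173 to 2748 higher and 1895 to 2596 lower for WT IL-2. For ortho IL-2 they called 2462 to 3387 higher and 2284 to 3247 lower. For WT IL-2 the count of 5 came without no IL-2 replicate 1 and without no IL-2 replicate 3, and that of 8 without no IL-2 replicate 3 and without the first WT IL-2 replicate. For ortho IL-2 the count of 5 came without no IL-2 replicate 3. For ortho against WT IL-2, edgeR called 0 members throughout (median from -0.032 to 0.014), while 12 members had an unadjusted p under 0.05 without WT IL-2 replicate 1.

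With the RPKM divisor alone, 22 of 56 members changed sign for WT IL-2, 3 of them called as reported, and 24 for ortho IL-2, 5 of them called. Members called either as reported or under the alternative turned as follows. With WT IL-2, in the order RPKM divisor alone, limma 0.5 and limma 0.1, Gins4 was at 0.066, 0.061 and 0.063, Pold3 at 0.058, 0.054 and 0.056, Msh6 at 0.056, 0.052 and 0.053, and Lig1 at 0.18 and 0.19 in limma. With ortho IL-2, Mcm4 was at 0.032, 0.030 and 0.031, Mcm7 at 0.20 in each, Rfc1 at 0.051, 0.050 and 0.052, Rfc2 at 0.27, 0.26 and 0.27, Pola1 at 0.025, 0.023 and 0.024, Pole at 0.26, 0.24 and 0.25, Lig1 at 0.22, 0.21 and 0.22, Slbp at 0.24 in each, Brca2 at 0.029, 0.024 and 0.028, and Msh6 at 0.10, 0.098 and 0.099. With the covariate Tyms was at 0.31 and 0.30. With GC offsets, without and with the block, Pold2 was at -0.19 and -0.20 and Rpa3 at 0.19 and 0.19 with ortho IL-2. Depth limits the least abundant members, such as Ung, which was not tested.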
